A study of Homo sapiens with 6 samples.

Results

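The SOSS complex is a sensor of single-stranded DNA built from INTS3, INIP and 1 of the proteins NABP1 and NABP2. Its 4 genes, of 27192 listed, were selected on the large difference of INIP between the groups, and the other 3 were taken as its partners by name. The change of INIP is therefore described here without a test, while NABP1, NABP2 and INTS3 were tested. RNA was counted in 6 libraries of polyA RNA from the established human glioblastoma line U87. In 3 of them, called siLINC00152, the cells had received a combination of 2 siRNAs against the long noncoding RNA LINC00152, and in the other 3, called siGL2, a nonspecific control siRNA. All cells were transfected 2 times with Lipofectamine RNAiMAX, 24 hours apart, and collected 24 hours after the last transfection. Since the 2 siRNAs against LINC00152 were given together, the effect of either one cannot be told apart. The labels do not say whether libraries A, B and C of a group were grown apart, and the p-values therefore reflect the spread of these libraries alone, which may be technical.

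In the SOSS complex, INTS3 is the scaffold that holds the small subunit INIP (also called SSBIP1 or MISE) and an OB-fold protein, NABP2 (hSSB1) or NABP1 (hSSB2), which contacts the single-stranded DNA. The complex is known for its role in the response to DNA double-strand breaks, where it supports signalling through the kinase ATM and repair by homologous recombination. INTS3 is also a subunit of Integrator, a nuclear complex that cleaves nascent RNA and attenuates transcription at many genes.

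Sequences are shown for the 3 genes of the complex whose RNA could be measured well. For INIP, the 20 bases around each of the 2 places in its 3′ UTR with the word CTGAAAGA are given, because words of 7 bases from this stretch led an earlier search of these same changes. Positions are of GRCh38, read from GENCODE 29 transcript ENST00000374242.8 on the minus strand, 5′ to 3′, with the word in capitals.
INIP, chr9:112687405-112687424: gtttgtCTGAAAGAaaggaa
INIP, chr9:112687377-112687396: tgaaagCTGAAAGAagaata
NABP1 and NABP2 encode alternative subunits and moved in the same direction. For each, a RefSeq promoter window of 250 bases is given (GRCh38.p14, plus strand, 5′ to 3′). That of NABP1 ends just before its RefSeq start at 191678136. That of NABP2 lies inside the gene, whose RefSeq start is 56222015, and so not before its outermost start. Capitals mark CCAAT or, on the other strand, ATTGG, the box that the factor NF-Y binds.
NABP1, chr2:191677886-191678135: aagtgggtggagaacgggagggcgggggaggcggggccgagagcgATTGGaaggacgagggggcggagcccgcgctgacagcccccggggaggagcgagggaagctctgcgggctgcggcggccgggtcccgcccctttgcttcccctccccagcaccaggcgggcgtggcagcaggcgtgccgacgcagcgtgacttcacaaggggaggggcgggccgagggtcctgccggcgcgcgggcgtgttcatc
NABP2, chr12:56224092-56224341: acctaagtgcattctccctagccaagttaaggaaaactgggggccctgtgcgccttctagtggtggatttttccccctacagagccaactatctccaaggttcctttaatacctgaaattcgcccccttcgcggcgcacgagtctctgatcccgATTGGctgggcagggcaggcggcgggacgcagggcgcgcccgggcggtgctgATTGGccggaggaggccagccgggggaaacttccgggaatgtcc
The NABP1 window holds the box 1 time and the NABP2 window 2 times, each as ATTGG. The window of INTS3, not shown, holds it 3 times. The box is present on either strand in 32% of 35116 RefSeq promoters of this length. The share was 33% for promoters of tested genes and 35.4% for those of genes lower in siLINC00152.

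Total counts per library were 41963120 to 46234763, and 17741 to 17877 genes had at least 1 count. LINC00152, the targeted gene, had 650, 608 and 776 counts in siGL2 libraries A, B and C and 114, 112 and 109 in siLINC00152. This is 15.2 ± 1.18 against 2.67 ± 0.108 CPM (CPM are counts relative to the TMM-scaled library size; SD, n = 3), 5.68-fold lower (quasi-likelihood test of edgeR, p adjusted by Benjamini-Hochberg = 4.55e-15), and each library was on the side its label gives. LINC00152 shares 20.7% of its annotated 75-base stretches with other genes, mainly MIR4435-2HG, which did not pass the test (log2 fold change −0.05 ± 0.05, SE; edgeR adjusted p = 0.429). Library siGL2 A stood somewhat apart from siGL2 B and C (chi-square per degree of freedom of the counts 10.9 and 13.7, against 2.91 between B and C), and results for the complex are therefore also given without it.

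The labelled line was checked against markers. All 8 mesenchymal glioblastoma markers passed the filter on low counts and summed to 21130 to 21670 CPM in siGL2 and 20224 to 20853 CPM in siLINC00152, led by VIM. Of 6 astrocyte markers, 4 were under 1 CPM, among them GFAP, and AQP4 was at 0 in every library, while SLC1A3 stood at 44.2 CPM in siGL2 and 32.2 CPM in siLINC00152. The summed markers of each other cell type were lower in siLINC00152, as INIP was, but not every marker was. Neuronal markers (6, 4 of them tested, led by SNAP25) summed to between 94.6 and 98.8 CPM in siGL2 and between 73.6 and 77.6 CPM in siLINC00152. Microglia and blood markers (6, 2 tested, led by CSF1R, with AIF1 at 0) summed to between 22.5 and 23.2 CPM in siGL2 and between 13.2 and 14.3 CPM in siLINC00152. Endothelial markers (5, 4 tested, led by KDR) summed to between 8.68 and 9.60 CPM and between 3.80 and 4.14 CPM. The sums of oligodendrocyte lineage markers (6, 3 tested, led by PDGFRA, with OLIG1 and MOG at 0) were between 5.92 and 6.13 CPM and between 3.87 and 4.62 CPM. Against the direction of their sums, CD14 (microglia and blood) stood at 0.114 and 0.374 CPM and VWF (endothelium) at 0.334 and 0.724 CPM. CD14 had 4, 9 and 2 counts in siGL2 and 15, 19 and 13 in siLINC00152. It passed the filter only through siLINC00152, so its rise is a description. VWF rose (edgeR adjusted p = 0.00123) from low counts, 17, 9 and 19 in siGL2 against 31, 30 and 30. The neuronal GAD1 stood at a log2 fold change of 0.07 ± 0.06 (SE) and did not pass. All libraries are labelled as the line U87. The sums are therefore levels of marker genes and do not show that the other cell types were present. The part of these marker genes in the results below was not tested. In bulk libraries, fewer cells with the RNA of a marker and less RNA per cell cannot be told apart.

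INIP, the small subunit of the complex, was much lower in siLINC00152 than in siGL2. Its counts were 2474, 2527 and 2793 in siGL2 libraries A, B and C and 299, 308 and 329 in siLINC00152, or 57.0, 58.5 and 59.1 CPM against 7.28, 7.33 and 7.73 CPM. The libraries of each group lay close together and far from the other group. The means were 58.2 ± 1.05 and 7.45 ± 0.244 CPM (SD, n = 3), so that siLINC00152 held 12.8% of the control level, a log2 fold change of −2.97 ± 0.06 (SE; 95% confidence interval −3.09 to −2.84). Without siGL2 A it was −2.98 ± 0.06. These are the values that chose the complex, and no p is attached to them. Ranked by log2 fold change, INIP was the lowest of the 9197 tested genes with at least 10 CPM in siGL2, and the 4th lowest of all 14078 tested genes. Just behind it in the first of these rankings came YWHAH at −2.79. INIP (ENSG00000148153.13) is a protein-coding gene of chromosome 9 between 112683926 and 112718236, read on the minus strand (hg38). None of its 75-base stretches occurs in another annotated gene and none of its exonic bases is overlapped on the opposite strand.

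**Figure D1:**
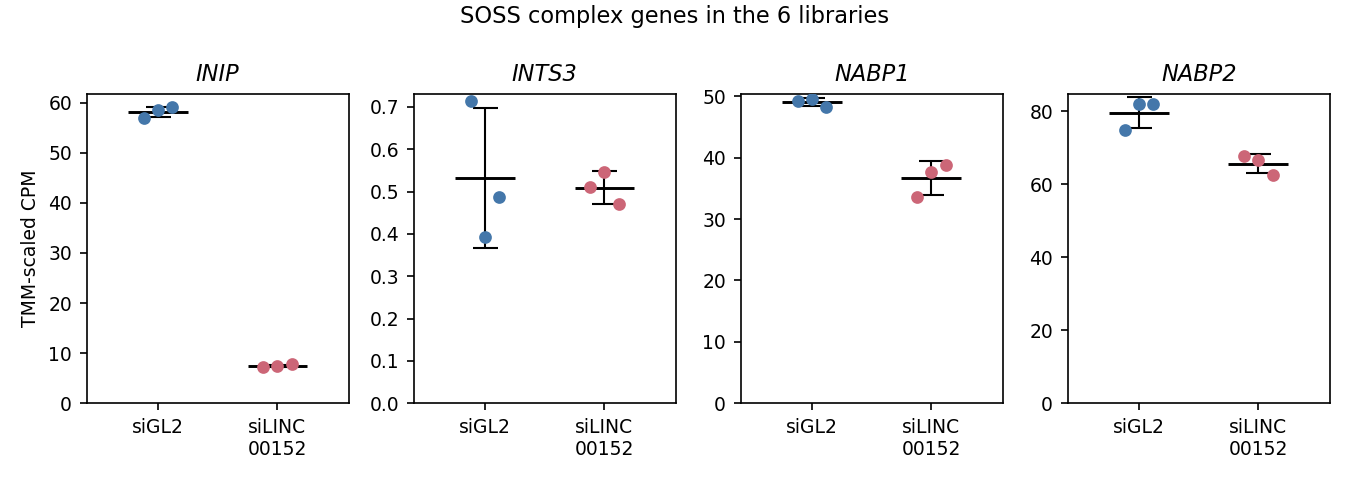
TMM-scaled CPM (vertical axes, each starting at 0 with its own scale) of the 4 SOSS genes in the 3 siGL2 (blue) and 3 siLINC00152 (red) libraries, with the group mean as a line and the SD as an error bar. The groups are apart for INIP (58.2 against 7.45 CPM), NABP1 (49.0 against 36.7 CPM) and NABP2 (79.6 against 65.6 CPM), and overlap for INTS3, which stands near 0.5 CPM.

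Both DNA-binding subunits were lower in siLINC00152 too, by far less than INIP. NABP1, which encodes the OB-fold protein hSSB2, had 2134, 2141 and 2284 counts in siGL2 and 1382, 1583 and 1651 in siLINC00152, or 49.2, 49.6 and 48.3 CPM against 33.7, 37.7 and 38.8 CPM. The groups did not overlap, and the siLINC00152 libraries were the more spread, with A the lowest. NABP1 fell 1.34-fold, from 49.0 ± 0.652 to 36.7 ± 2.69 CPM (SD, n = 3), with a log2 fold change of −0.42 ± 0.06 (SE; 95% confidence interval −0.53 to −0.30; edgeR adjusted p = 1.29e-06). NABP2, which encodes hSSB1, had 3243, 3540 and 3880 counts in siGL2 and 2782, 2796 and 2666 in siLINC00152, or 74.7, 81.9 and 82.0 CPM against 67.7, 66.5 and 62.6 CPM. Its groups did not overlap either, although siGL2 A was nearer to the siLINC00152 libraries than B and C were. NABP2 fell 1.21-fold, from 79.6 ± 4.19 to 65.6 ± 2.69 CPM (SD, n = 3), with a log2 fold change of −0.28 ± 0.05 (SE; 95% confidence interval −0.38 to −0.17; edgeR adjusted p = 7.48e-05). Without siGL2 A the log2 fold changes were −0.41 ± 0.05 for NABP1 and −0.32 ± 0.05 for NABP2 (SE), and both passed the test.

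Of the 3 partners tested, then, 2 were lower, 0 higher and 1, INTS3, did not pass. Over all 14078 tested genes 64.3% passed the same threshold, an edgeR adjusted p under 0.05, with 32.2% lower and 32.2% higher, and the median log2 fold change was 0.00. Small differences such as those of NABP1 and NABP2 are common in this comparison, where the median SE of a log2 fold change was 0.06. The share of all tested genes whose groups do not overlap was not counted. Groups that lie apart therefore describe a gene here and do not set it off from others. NABP1 (ENSG00000173559.12) lies on chromosome 2, plus strand, between 191678068 and 191696659, and 2.26% of its 75-base stretches occur elsewhere, mainly in DNAJC21. NABP2 (ENSG00000139579.12) lies on chromosome 12, plus strand, between 56222015 and 56229854, and shares none.

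Since NABP1 and NABP2 occupy the same place in the complex, their balance within a library was compared as well. The ratio of NABP1 to NABP2 CPM was 0.658, 0.605 and 0.589 in siGL2 and 0.497, 0.566 and 0.619 in siLINC00152. The groups overlapped, since siLINC00152 C exceeded siGL2 B and C. The mean log2 ratio was −0.70 ± 0.08 in siGL2 and −0.84 ± 0.16 in siLINC00152 (SD, n = 3), and the difference of −0.14 did not pass (exact two-sided permutation test, p = 0.3, where 3 libraries against 3 allow no less than 0.1). A change in the balance of the alternative subunits was therefore not detectable with these libraries.

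INTS3, the scaffold, was close to absent from the tables in both groups. It had 31, 17 and 23 counts in siGL2 and 21, 23 and 20 in siLINC00152, or 0.714, 0.394 and 0.486 CPM against 0.511, 0.547 and 0.470 CPM. All siLINC00152 libraries lay within the range of the siGL2 libraries, of which A was the highest. The log2 fold change was −0.06 ± 0.27 (SE; 95% confidence interval −0.62 to 0.50; edgeR adjusted p = 0.863), and without siGL2 A its sign turned, to 0.21 ± 0.31 (SE). The interval includes the log2 fold changes of NABP1 and NABP2, so a change of INTS3 of that size was not detectable at this depth.

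The low count of INTS3 was shared by its immediate neighbours on chromosome 1. INTS3 (ENSG00000143624.13) lies on the plus strand from 153728067 to 153774808, and 4.95% of its 75-base stretches occur in other genes, mainly the adjacent SLC27A3. NPR1, just before it, had 0 to 2 counts per library, SLC27A3, just after it, 1 to 3, and GATAD2B, the next gene, 22 to 55. The genes on either side of this group had far higher counts: ILF2, which encodes a double-stranded RNA binding protein, had 6369 to 10428 counts and DENND4B 1661 to 2260. In the plot of counts around INTS3 the 4 adjacent genes from NPR1 to GATAD2B form a low stretch between genes with high counts. Other genes of the lists below that were at or near 0 in every library included MDC1, a scaffold at broken DNA, TEN1, a telomere subunit, and EXD2, a nuclease. Of the 75-base stretches of TEN1, 63.8% occur in other genes, mainly TEN1-CDK3. What sets these low counts was not tested, and the sources used here do not give the annotation behind the counts.

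**Figure D2:**
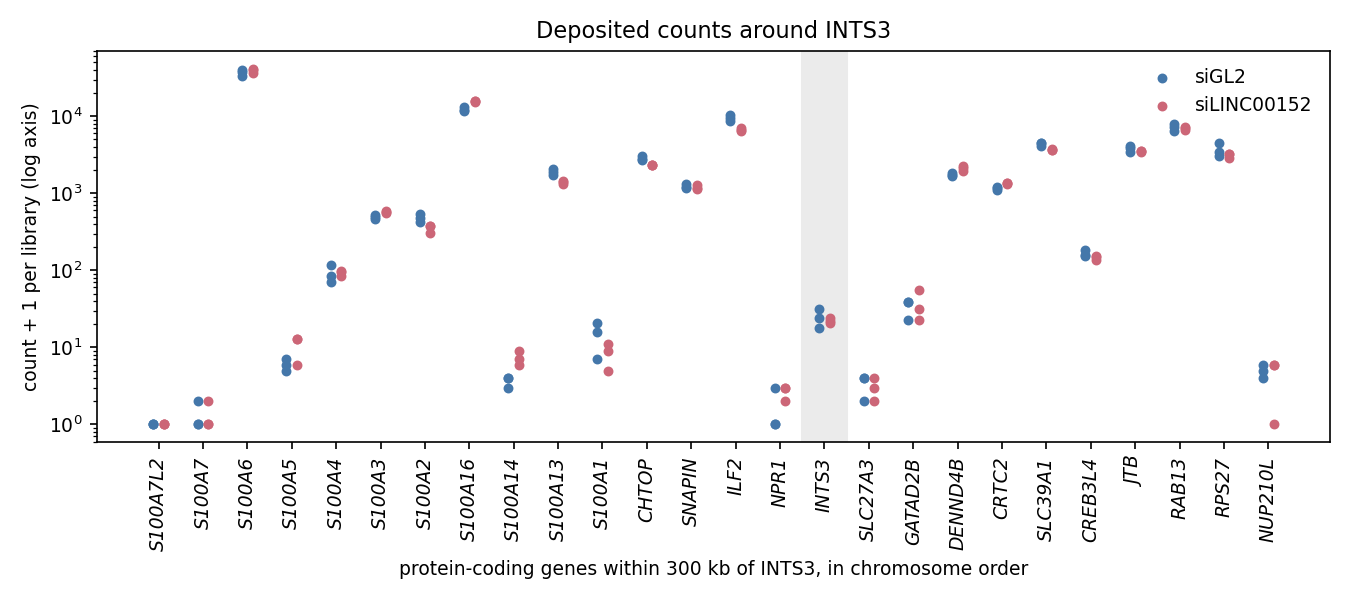
Deposited counts plus 1 (vertical log axis) of protein-coding genes within 300 kb of INTS3, in chromosome order (horizontal axis), for the 3 siGL2 (blue) and 3 siLINC00152 (red) libraries, with INTS3 shaded. INTS3 at 17 to 31 counts sits between NPR1 (0 to 2), SLC27A3 (1 to 3) and GATAD2B (22 to 55), while ILF2 and DENND4B on either side have over 1000 counts in every library.

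The order of the 4 genes was compared per length, as CPM per kb of annotated exonic bases. In siGL2, NABP2 was highest at 35.9 ± 1.89 CPM per kb, followed by INIP at 13.2 ± 0.238, NABP1 at 3.55 ± 0.0473 and INTS3 at 0.0509 ± 0.0158 (SD, n = 3). The neighbours in this order lay further apart than their spread. In siLINC00152, NABP2 stood at 29.6 ± 1.21 CPM per kb, NABP1 at 2.66 ± 0.195, INIP at 1.68 ± 0.0551 and INTS3 at 0.0488 ± 0.00372, so that INIP stood below NABP1. The places of INIP and NABP1 depended on the length given to NABP1, whose annotated transcripts tied to RefSeq range from 1878 to 11521 bases. With the shortest of them, NABP1 stood at 26.1 ± 0.347 CPM per kb in siGL2, above INIP at 13.7 ± 0.248, and at 19.5 ± 1.43 CPM per kb in siLINC00152 (SD, n = 3).

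INTS3 ties the complex to Integrator, and the other 15 Integrator subunits were all expressed and mostly differed little. In siGL2 they stood at 1.18 CPM per kb of exonic bases (INTS6) to 21.9 CPM per kb (INTS13, listed as ASUN), against 0.0509 CPM per kb for INTS3. Of the 15, 3 were lower, 2 were higher and 10 did not pass, which is 33.3% called against 64.3% of all tested genes, with a median log2 fold change of 0.00. INTS7 fell from 62.3 ± 1.03 to 42.0 ± 0.565 CPM (SD, n = 3), a log2 fold change of −0.57 ± 0.05 (SE; edgeR adjusted p = 1.32e-09). INTS14, listed as VWA9, fell by 0.54 ± 0.05 on the log2 scale (SE; edgeR adjusted p = 1.47e-08), and INTS9, a partner of the endonuclease INTS11, by 0.25 ± 0.06 (edgeR adjusted p = 8.79e-04). INTS2 rose by 0.24 ± 0.05 (SE; edgeR adjusted p = 4.14e-04). INTS8 rose by 0.13 ± 0.05 (edgeR adjusted p = 0.0219), a call that was lost when library size alone set the scale and without any one of 4 of the libraries. INTS8 shares 18.0% of its 75-base stretches with other genes, mainly CCNE2, and 20.7% of its exonic bases are overlapped on the opposite strand.

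The 10 subunits that did not pass lay between −0.06 and 0.13 on the log2 scale. INTS11, the endonuclease (listed as CPSF3L), stood at 0.00 ± 0.05 (SE), INTS1 at 0.10 ± 0.05, INTS4 at 0.00 ± 0.07, INTS5 at 0.05 ± 0.06, INTS10 at −0.04 ± 0.05 and INTS13 at 0.00 ± 0.05. INTS6 stood at 0.13 ± 0.06, INTS6L at 0.12 ± 0.07, INTS12 at −0.06 ± 0.06 and INTS15 (C7orf26) at −0.05 ± 0.07. INTS12 shares 11.5% of its 75-base stretches and INTS4 13.8%, mainly with GSTCD and INTS4P1.

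**Figure D3:**
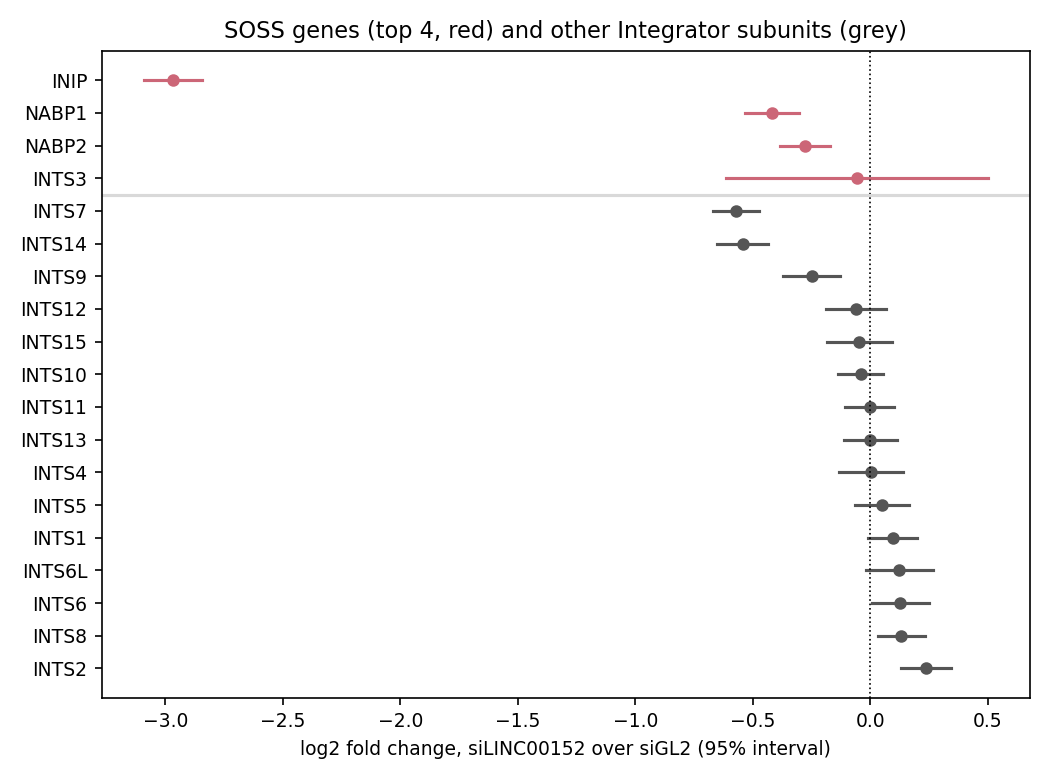
Log2 fold change, siLINC00152 over siGL2 (horizontal axis), with its 95% confidence interval as a bar, for the 4 SOSS genes (red) and the other 15 Integrator subunits (grey). INIP lies at −2.97, NABP1 and NABP2 lie at −0.42 and −0.28, INTS3 has the widest interval, and the other subunits lie between −0.57 and 0.24.

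Other proteins that bind single-stranded DNA moved in the direction of NABP1 and NABP2 more often than the other way. Of 13 such genes 9 were tested, and 6 were lower, 1 was higher and 2 neither. Their median log2 fold change was −0.18. The share lower, 66.7%, compares with 32.2% of all tested genes. All 3 subunits of replication protein A, the main single-strand binding complex of replication and repair, fell. RPA1 was at 126.4, 130.8 and 122.3 CPM in siGL2 and 85.1, 89.4 and 84.8 CPM in siLINC00152, with no overlap, and fell by 0.55 ± 0.05 on the log2 scale (SE; edgeR adjusted p = 2.01e-09). RPA3 fell by 0.48 ± 0.06 and RPA2 by 0.43 ± 0.05 (SE; edgeR adjusted p = 4.84e-07 and 4.67e-08). STN1, listed as OBFC1, a telomere subunit, fell by 0.30 ± 0.06 (SE), SSBP1, the mitochondrial single-strand binding protein, by 0.18 ± 0.07 and POT1, which caps telomere ends, by 0.13 ± 0.05. CTC1, which works with STN1, went the other way, at 0.24 ± 0.08 (SE; edgeR adjusted p = 0.0142), and stood at 0.17 without a call when library size alone set the scale. Without siGL2 C only 4 of the 9 passed, all of them lower, with SSBP1 at −0.13, POT1 at −0.12 and CTC1 at 0.18 not among them. The groups of SSBP1 overlapped, and its call was also lost without siGL2 B or siLINC00152 A. That of POT1 was also lost with DESeq2 and without siLINC00152 A or B, and that of CTC1 without siLINC00152 C. RADX, listed as CXorf57, at 0.09 ± 0.07 and HROB, listed as C17orf53, at 0.03 ± 0.07 did not pass.

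The steps of break repair in which SOSS takes part were described by 3 further lists. Genes of double-strand break sensing and ATM signalling went both ways: of 15 tested, 5 were higher, 5 lower and 5 neither, with a median log2 fold change of 0.01. ATMIN, a cofactor of ATM, rose by 0.44 ± 0.05 on the log2 scale (SE; edgeR adjusted p = 4.96e-08). NBN, a subunit of the MRE11 complex that recognises broken ends, fell by 0.44 ± 0.05 (SE; edgeR adjusted p = 2.56e-07) and CHEK2, a kinase downstream of ATM, by 0.51 ± 0.08 (edgeR adjusted p = 8.30e-06). The histone gene H2AX (listed as H2AFX) fell by 0.28 ± 0.05 and the ubiquitin ligase gene RNF8 by 0.29 ± 0.06 (SE). ATM itself, at 62.0 CPM in siGL2 and 64.3 CPM in siLINC00152, did not pass (0.05 ± 0.06, SE; edgeR adjusted p = 0.430), but passed at 0.12 ± 0.05 without siGL2 A (edgeR adjusted p = 0.0260). In this list 66.7% were called, near the 64.3% of all tested genes.

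Genes of DNA end resection, which makes the single strands that such proteins bind, were lower in 9 of 14 tested cases and higher in 1, with a median log2 fold change of −0.30. The list had 71.4% called and 64.3% lower, where all tested genes had 64.3% and 32.2%. MAD2L2 fell by 0.59 ± 0.06 on the log2 scale (SE; edgeR adjusted p = 1.16e-08), RMI1, a partner of the BLM helicase, by 0.58 ± 0.05 (edgeR adjusted p = 6.62e-09), the nuclease gene EXO1 by 0.43 ± 0.05 (8.32e-07) and RBBP8, which encodes the resection factor CtIP, by 0.39 ± 0.05 (6.88e-07). MAD2L2 belongs to shieldin, which limits resection, so the lower genes include both directions of this step. HELB, a helicase known to restrain resection, rose by 0.72 ± 0.10 (SE; edgeR adjusted p = 1.59e-06), from 3.52 to 5.80 CPM.

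In the ATR checkpoint list 10 of 14 genes were lower, 1 was higher and 3 neither, so that 78.6% were called and 71.4% lower, against 64.3% and 32.2% of all tested genes. Their median log2 fold change was −0.38. CLSPN, which brings the kinase CHK1 to ATR, fell by 0.76 ± 0.05 on the log2 scale (SE; edgeR adjusted p = 8.83e-11), RHNO1 by 0.67 ± 0.05 (1.12e-09), TIMELESS, a replication fork protein, by 0.53 ± 0.05 (7.34e-09) and TOPBP1, an activator of ATR, by 0.40 ± 0.05 (5.08e-07). TIPIN, the partner of TIMELESS, fell by 1.03 ± 0.07 (SE; edgeR adjusted p = 3.91e-11), and 17.6% of its 75-base stretches occur in other genes, mainly RPL9P25.

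**Figure D4:**
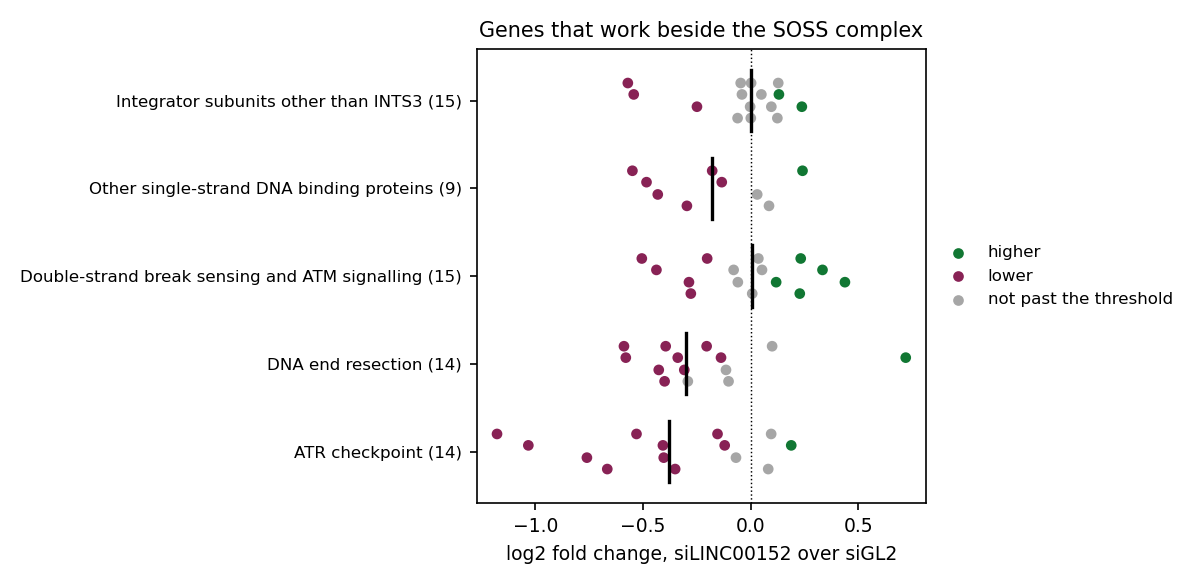
Log2 fold change, siLINC00152 over siGL2 (horizontal axis), of each tested gene in 5 lists (rows, with the number tested), with genes past the threshold in green (higher) or purple (lower), others in grey, and the median as a black bar. The medians are 0.00 for Integrator and 0.01 for break sensing, and lie between −0.18 and −0.38 in the other 3 lists.

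The other genes around INIP did not share its low level. The tables list 26 other genes within 1 Mb of INIP, of which 22 were tested, and 7 were higher, 8 lower and 7 neither (68.2% called against 64.3% of all tested genes), with a median log2 fold change of −0.06. The nearest gene on one side, KIAA1958, lies 14.5 kb away and went from 3.99 ± 0.181 to 7.25 ± 0.398 CPM (SD, n = 3) and rose by 0.86 ± 0.09 on the log2 scale (SE; edgeR adjusted p = 5.54e-08). The nearest on the other side, SNX30, which encodes a sorting nexin, lies 32.6 kb away and fell by 0.18 ± 0.05 (SE; edgeR adjusted p = 0.00517). UGCG, the first enzyme of glycosphingolipid synthesis, rose 748.6 kb away from 72.9 ± 1.59 to 231.5 ± 14.2 CPM (SD, n = 3), a log2 fold change of 1.67 ± 0.05 (SE; edgeR adjusted p = 2.38e-16). PTBP3, which encodes an RNA-binding protein, rose by 1.05 ± 0.05 (SE; edgeR adjusted p = 4.76e-13) and the copper transporter gene SLC31A1 by 0.50 ± 0.05 (7.63e-09). C9orf84 had the highest log2 fold change, 3.06 ± 0.35 (SE), at low levels of 0.103 and 0.892 CPM. It had 5, 1 and 8 counts in siGL2 and 38, 37 and 37 in siLINC00152. C9orf84 thus passed the filter on low counts only through siLINC00152, where it is high. Its rise, counted among the 7 higher, is therefore a description. The lowest of the 22 was FAM225B at −0.82 ± 0.24 (SE; edgeR adjusted p = 0.00608), 74.0% of whose 75-base stretches occur in FAM225A and other genes. Lower by less were PRPF4 (−0.26 ± 0.05, SE), POLE3 (−0.21 ± 0.05), WDR31 (−0.57 ± 0.16), RGS3 (−0.13 ± 0.05), ZNF883 (−0.21 ± 0.08) and CDC26 (−0.20 ± 0.08). SLC31A2 (0.40 ± 0.06) and ZFP37 (0.19 ± 0.08) were also higher, and 63.1% of the exonic bases of SLC31A2 are overlapped on the opposite strand. Of the 75-base stretches of CDC26, 16.7% occur in other genes, mainly AC009244.1, and of those of ZNF883, 98.4% occur in another entry of the same symbol. The 7 that did not pass lay between −0.29 (C9orf43) and 0.07 (FKBP15). The calls of RGS3, ZNF883, CDC26 and ZFP37 were each lost without any one of several libraries.

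**Figure D5:**
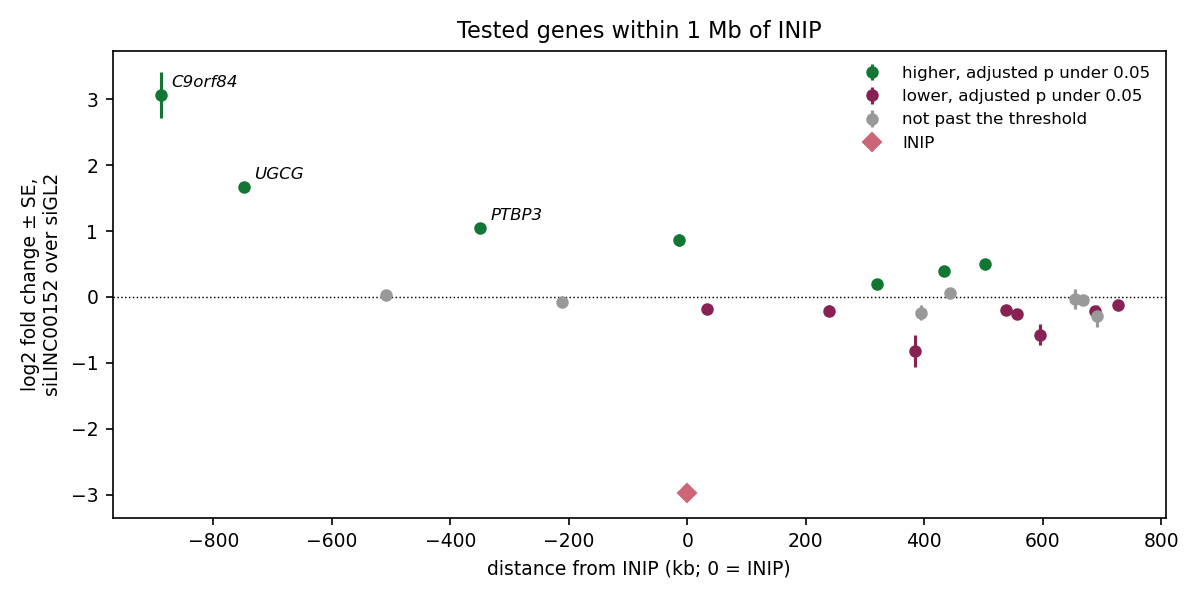
Log2 fold change, siLINC00152 over siGL2, with its SE (vertical axis), of tested genes within 1 Mb of INIP against their distance from it (horizontal axis, kb), in green (higher), purple (lower) or grey (not past the threshold), with INIP as a red diamond. INIP lies at −2.97, while the nearest genes KIAA1958 and SNX30 lie at 0.86 and −0.18 and no other gene is below −0.82.

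Patterns most like that of each subunit were ranked by the root mean square difference of log2 CPM, centred on the siGL2 mean, over the 6 libraries, among 9196 genes with at least 10 CPM in siGL2. Those of INIP were led by YWHAH, which encodes a 14-3-3 adaptor, at a difference of 0.13, PLEKHA3, which encodes a Golgi phospholipid-binding protein, at 0.19, and the transcription factor gene ST18 at 0.24. YWHAH stood at 188.7 ± 8.42 CPM in siGL2 and 27.2 ± 1.08 CPM in siLINC00152, PLEKHA3 at 59.7 ± 2.69 and 9.20 ± 0.163 CPM, and ST18 at 11.2 ± 0.685 and 1.65 ± 0.398 CPM (SD, n = 3). LINC00152 itself came 5th, at 0.34. With 2 groups only, this likeness is mostly likeness in the size of the difference between them.

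For NABP1 the nearest patterns were those of EXO1 and TOPBP1, both named above, CEP55, which acts in the last step of cell division, the homeobox gene PRRX1 and RNF219, at differences of 0.028 to 0.033. EXO1 stood at 44.2 ± 0.800 CPM in siGL2 and 32.9 ± 2.13 CPM in siLINC00152, and CEP55 at 159.2 ± 4.74 and 118.5 ± 6.92 CPM (SD, n = 3). RNF219 shares 39.8% of its 75-base stretches with other genes, mainly its antisense gene. For NABP2 they were C2orf47, PARK7, PCBD1, RTCB, the RNA ligase of tRNA splicing, and MRFAP1L1, at 0.021 to 0.025. PARK7 stood at 235.7 ± 9.98 and 193.8 ± 7.05 CPM (SD, n = 3). The 10 genes nearest to NABP1 and NABP2 thus differed by 0.26 to 0.44 on the log2 scale, downward in each case, as a likeness to these genes requires. INTS3 was below the 10 CPM minimum, and no likeness was computed for it.

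The 3′ UTRs of the 4 genes were read for the word GTGTGTC, the word TGAAAGA, the word TGTGTCA and the word CTGAAAG, each of 7 bases, on the transcript strand alone, overlaps counted. These words were picked in an earlier search on the same fold changes, so the matches are a description and support nothing. The 3′ UTR of INIP, of 3612 bases, held 5 matches, 3 of TGAAAGA and 2 of CTGAAAG, and 4 of them overlap as the 2 copies of CTGAAAGA shown above, which start at UTR positions 120 and 148. That of NABP2, of 641 bases, held none, and that of INTS3, of 1538 bases, held 1. That of NABP1 held 7 in 10891 bases, all of them beyond position 191686943, where the RefSeq gene ends. Among the genes like INIP, PLEKHA3 held 5 matches in 12575 bases, YWHAH 3 in 1448 bases and ST18 none in 2359 bases.

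CTGAAAGA is not rare in 3′ UTRs, and most genes that hold it differed little. It occurs in 738 of 12197 tested genes with an annotated 3′ UTR, or 6.05%, and their median log2 fold change was −0.04, against 0.00 for genes without it. It was held by 48 (11.8%) of 406 genes at least 2-fold lower and by 24 (6.52%) of 368 genes at least 2-fold higher. The words were picked on these same fold changes, so the shares in this paragraph are a description and support nothing. Of the 44 genes with 2 or more copies, as in INIP, 20 (45.5%) were lower and 18 higher at the edgeR threshold, with a median of −0.04. Of the 11459 genes with no copy, 3823 (33.4%) were lower and 3855 higher. INIP, chosen for its fall, had the lowest value among the 44. Any of the 4 words occurs in 42.2% of genes, of which 34.4% were lower, against 33.1% of those with none. At least 1 of them was held by 54.4% of the genes at least 2-fold lower and by 47.6% of those at least 2-fold higher.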

How the data were processed

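Strand-directional libraries of polyA RNA from U87 cells were sequenced in pairs of 75-base reads, per the labels' protocols. The values are raw counts per gene symbol as deposited by the authors, 1 table per library. Per the submitters' processing notes, the build was hg38 and the tools, given with no version, included bcl2fastq, HISAT, HTSeq and DESeq. Annotation, strand setting and the handling of reads with several matches: not given in the sources used here.

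Groups and letters came from the titles. The filterByExpr step (minimum count 10, minimum total 15) kept 14078 of 27192 genes. Library sizes were scaled by TMM (factors 0.975 to 1.03), and all 6 libraries were fitted with edgeR 4.0.16 (robust quasi-likelihood test, no covariate, two-sided, R 4.3.3, limma 3.58.1), with Benjamini-Hochberg adjustment over all tested genes and a threshold of 0.05. Each SE of a log2 fold change was taken as its absolute value over the root of F. For genes at 0, the upper limit is 3 counts (0.0634 to 0.0730 CPM), for counting error only. No 2 libraries of a group agreed within sampling noise (chi-square per degree of freedom 2.91 to 13.7). The edgeR fit was also run on simulated counts, where few genes changed, as many up as down, with the same dispersion for all genes. In these libraries most tested genes passed, so that run is no check of the scaling or the error rate here. DESeq2 1.42.0, other scalings, other filters, a replicate block and leaving out each library were the alternatives.

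GENCODE 29 (GRCh38, the assembly that hg38 names) gave positions, exonic lengths, shared 75-base stretches, overlap on the opposite strand and 3′ UTRs. Shares of 10% or more are given for most genes described singly, since they can misplace reads. Further such shares are overlaps on the opposite strand of 41% for RNF219, 21.7% for INTS12, 17.7% for CDC26 and 14.3% for FKBP15. MIR4435-2HG shares 23.7% of its 75-base stretches. Promoters came from RefSeq, matched for INTS3, NABP1 and NABP2.

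The members, the gene lists and the cell type markers were chosen with earlier results of these data known. The genes named were the members, LINC00152, MIR4435-2HG, all tested Integrator subunits, in each other list the 5 lowest p-values, the tested neighbours of INIP up to 1 Mb away, the 5 genes most like each member in pattern and each cell type's most abundant marker. SSBP1, POT1, RADX, HROB, ATM, CD14, VWF, GAD1, the genes around INTS3 and those near 0 were added with their values in view. A gene that this rule names and a list are not reported here.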

Additional observations from a re-analysis of the deposited data

How the results depend on the processing

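Every change of LINC00152, NABP1 and NABP2 kept its direction and its side of the threshold under every alternative run. Whether the letters A, B and C pair libraries across the groups is not given by the labels. Correlations of deviations from the group means were 0.08 (A), −0.01 (B) and 0.06 (C) for the same letter. Between different letters they were −0.09 to 0.03, below those of A with A and C with C. Values this small cannot settle whether the letters pair the libraries. With the replicate block, the count of genes past the threshold was 9155, against 9058 without it, and no call of a member changed. DESeq2 size factors in edgeR gave 9055, DESeq2 itself 8436, no filter 9299 and a filter of at least 1 CPM in 3 libraries, which INTS3 did not pass, 8589. With library size alone, 3755 genes were higher and 5389 lower, against 4529 each, the median log2 fold change moved to −0.07, and INIP stood at −3.03. INTS3 was reversed, at 0.21, without siGL2 replicate A, and without siGL2 replicate C 4 other single-strand DNA binding genes passed in place of 7. In these 2 cases fewer libraries were fitted.

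Leaving out each library gave 8294 to 9336 genes past the threshold, and log2 fold changes of −2.56 to −2.45 for LINC00152, −2.99 to −2.95 for INIP, −0.23 to 0.21 for INTS3, −0.46 to −0.36 for NABP1, −0.32 to −0.24 for NABP2 and −0.22 to −0.06 for the NABP1 to NABP2 ratio. It gave 4 to 7 calls for Integrator, 4 to 7 for other single-strand binding proteins, 8 to 11 for break sensing, 9 to 11 for resection, 8 to 11 for the ATR checkpoint and 11 to 15 near INIP. In an alternative chosen after seeing the data, without the 3 Integrator subunits that share 10% or more, 4 of 12 passed.

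Of 1064 values for 89 other single genes, 1001 kept direction and call, 34 lost a call, 9 gained one and 20 changed sign, all 20 in 9 genes that did not pass. With library size alone these were INTS4 (−0.065), INTS5 (−0.017), INTS13, listed as ASUN (−0.067), SUSD1 (−0.042), FKBP15 (−0.0011), HROB, listed as C17orf53 (−0.037), and ATM (−0.015). With the stricter filter they were INTS4 (−0.0075) and ASUN (−0.0089). Leaving out single libraries gave −0.032 to 0.028 for INTS4, −0.0028 to 0.078 for INTS5, −0.041 to 0.035 for INTS11 (CPSF3L), −0.052 to 0.034 for ASUN, −0.016 to 0.075 for SUSD1 and −0.14 to 0.089 for HDHD3. The cause of these changes was not tested. At 17 to 31 counts per library, INTS3 had an SE of 0.27 on the log2 scale.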
